A study of Mus musculus with 16 samples.

Results

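The genes described here are 10 members of the BCL2 family, whose products decide together whether a cell survives or enters apoptosis through its mitochondria. They were picked as a family, by symbol and by no threshold on a measured value although earlier results of these data were known, and are 10 of the 22114 protein-coding genes counted in the study: Bcl2, Bcl2l1 and Mcl1 of the survival group, Bax and Bak1 of the pore-forming group, and Bcl2l11, Bid, Bad, Bmf and Bik of the BH3-only group. The study sequenced poly-A captured RNA of DN3 thymocytes, the immature T-cell precursors in which an Lmo2 transgene gives rise to pre-leukemic stem cells. In H2B-GFP;Lmo2Tg mice, doxycycline for 6 weeks labelled the chromatin of dividing cells, and after a chase of 2 weeks without the drug, DN3 cells that still held the label (GFPhi, cells that had divided little, 3 libraries) were sorted apart from DN3 cells that had diluted it (GFPlo, 3 libraries). Total DN3 cells of 6-week-old mice gave 3 wild-type, 2 p21-/-, 2 Lmo2Tg and 2 Lmo2Tg;p21-/- libraries, where p21 is the cell-cycle inhibitor encoded by Cdkn1a.

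All mice were on the C57BL/6 strain, and each library came from a pool of 3 to 5 mice. Every cell of the GFPhi and GFPlo libraries carried the Lmo2 transgene, which the CD2 promoter drives in T cells, so that comparison has no non-transgenic control. The p21-/- deletion was present in all cells of the mouse, not in thymocytes alone.

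In healthy cells the survival proteins BCL2, BCL-XL (encoded by Bcl2l1) and MCL1 hold the pore formers BAX and BAK in check. BH3-only proteins such as BIM (encoded by Bcl2l11) rise or are activated under stress, occupy the survival proteins and let BAX and BAK open the outer mitochondrial membrane, which frees cytochrome c and starts the caspases. In the thymus these genes set how many precursors outlive cytokine shortage or a failed receptor rearrangement: interleukin-7 signals keep BCL2 and MCL1 up, while BIM removes thymocytes that lack such a signal.

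Total counts ran from 26861394 to 31106213 in the GFPhi and GFPlo libraries and from 13864936 to 16837667 in the genotype libraries. Levels below are CPM, the counts divided by each library's TMM-scaled total, a scaling made within each experiment, so levels of the 2 experiments are set side by side but not tested against each other. All 10 listed DN3 markers, among them Il2ra, Ptcra and Rag1, were detected in every group, with a summed level of 5423 to 8927 CPM. Lmo2 was at 0.31 CPM or less in each wild-type and p21-/- library and at 29.5 CPM or more in each library from transgenic mice. Cdkn1a lay between 36.5 and 49.0 CPM in wild-type and at 14.3 and 17.7 CPM in p21-/- libraries, so reads on that gene were fewer in the knockout but not absent. The third GFPhi library stood apart from the other two on the second principal component, which held 27.0% of the variance, and its Lmo2 level of 285 CPM was above the 53.8 and 29.5 CPM of the others. Results of the GFPhi comparison are therefore given with it, and for Bcl2, Bax, Bid, Bcl2l11 and Bak1 also without it.

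The results below turn on Mcl1 and Bcl2l11, which were both high in Lmo2Tg libraries, and on Bcl2, which was high in GFPhi libraries. RefSeq promoter entries on GRCm38.p6 matched 9 of the 10 members with 15 start sites; the 250 bases before a start of each of these 3 genes are shown, 5′ to 3′ on the gene's own strand, with matches to CANNTG in capitals. CANNTG is the E-box that basic helix-loop-helix factors read, a family with which LMO2 forms complexes. The windows are chr3:95658471-95658720 on the plus strand for Mcl1, chr2:128125788-128126037 on the plus strand for Bcl2l11 and chr1:106714291-106714540 on the minus strand for Bcl2.
Mcl1: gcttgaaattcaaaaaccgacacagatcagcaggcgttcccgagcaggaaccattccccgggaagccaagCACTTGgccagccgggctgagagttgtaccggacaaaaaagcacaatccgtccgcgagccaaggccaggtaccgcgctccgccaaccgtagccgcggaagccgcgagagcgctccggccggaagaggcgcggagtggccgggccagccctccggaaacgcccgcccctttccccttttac
Bcl2l11: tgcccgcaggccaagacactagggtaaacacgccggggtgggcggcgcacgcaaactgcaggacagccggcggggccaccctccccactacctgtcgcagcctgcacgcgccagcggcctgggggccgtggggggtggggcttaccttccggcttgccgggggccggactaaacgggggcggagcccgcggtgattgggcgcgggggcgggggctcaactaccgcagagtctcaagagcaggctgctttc
Bcl2: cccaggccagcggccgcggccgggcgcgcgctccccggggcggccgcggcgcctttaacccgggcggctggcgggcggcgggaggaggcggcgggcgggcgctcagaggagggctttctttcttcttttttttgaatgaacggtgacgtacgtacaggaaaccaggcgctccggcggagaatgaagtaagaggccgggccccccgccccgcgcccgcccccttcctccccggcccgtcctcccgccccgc

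CANNTG was searched on both strands and was found at 1 place in the Mcl1 window and at 0 places in the Bcl2l11 and Bcl2 windows, while 66.2% of the 32851 promoter windows of this length held it. The letters GATAA, the core that GATA factors read, were at 0 places in all 3 windows, against 22.6% of all windows. The GC-box letters GGGCGG were at 7 places in the Bcl2 window, 3 in the Bcl2l11 window and 1 in the Mcl1 window, and 32.7% of all windows held at least 1. A match is a stretch of letters and no measurement of binding.

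On GRCm38, as annotated by GENCODE M21, Mcl1 (ENSMUSG00000038612) lies on chromosome 3 from 95658788 to 95663176, Bcl2l11 (ENSMUSG00000027381) on chromosome 2 from 128126038 to 128162547, and Bcl2 (ENSMUSG00000057329) on chromosome 1 from 106538178 to 106714274. The promoter windows of Mcl1 and Bcl2 shown above stop short of these gene starts. For these 2 genes the bases just after the window were in no GENCODE transcript of the gene, while for Bcl2l11 they were. Bcl2l1 and Bmf share chromosome 2 with Bcl2l11, Bik is on chromosome 15 and Bak1 on chromosome 17, 2.06 Mb from Cdkn1a. Exons of 3 members overlap exons of a counted gene on the opposite strand, by 437 bases for Bak1 with Ggnbp1, 628 bases for Bid with Bcl2l13 and 524 bases for Bad with Gpr137. The names of the 2 deposited tables carry different strand words, "reverse" for GFPhi and GFPlo and "no" for the genotypes, and nothing else in the sources used here states the setting, so reads from these stretches cannot be assigned to 1 gene with certainty. Levels of a gene outside the members also differed between the experiments. Cycs, the gene for cytochrome c, was at 2.96 to 4.34 CPM in GFPhi and GFPlo and at 51.2 to 73.04 CPM in genotype libraries. The cause of that gap was not tested.

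Per kilobase of exon, the scale on which genes can be compared, Mcl1 had the highest mean level of the 10 members in every group. It was at 79.2 ± 9.22 CPM per kb (SD, n = 3) in wild-type and at 155 ± 2.12 CPM per kb (SD, n = 2) in Lmo2Tg libraries. Bax was second in every group, and its range overlapped that of Mcl1 in GFPhi libraries, where Bax per kb ran from 35.9 to 92.3 CPM. Bcl2 came next in GFPhi, wild-type and Lmo2Tg libraries, overlapping Bak1 in each of them, while in GFPlo libraries Bak1 and Bid had higher means and Bid overlapped Bcl2.

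Bcl2l11, Bmf and Bcl2l1 followed below Bcl2 and Bid in GFPhi and GFPlo libraries, each overlapping the next of the 3. In wild-type libraries Bmf, a BH3-only gene tied to the cytoskeleton and to cytokine loss, was at 12.6 ± 1.10 CPM per kb (SD, n = 3) against 7.52 ± 0.64 for Bcl2l11, with no overlap between the ranges. In Lmo2Tg libraries the order was turned, with 14.95 ± 3.56 CPM per kb (SD, n = 2) for Bcl2l11 and 9.24 ± 1.05 for Bmf, again with no overlap. Bad, whose product is controlled mainly by phosphorylation, was low everywhere, at a mean of 4.94 to 6.39 CPM per kb over the 6 groups. Bik was close to the limit of detection: each genotype library held 6 reads of it or fewer.

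**Figure D1:**
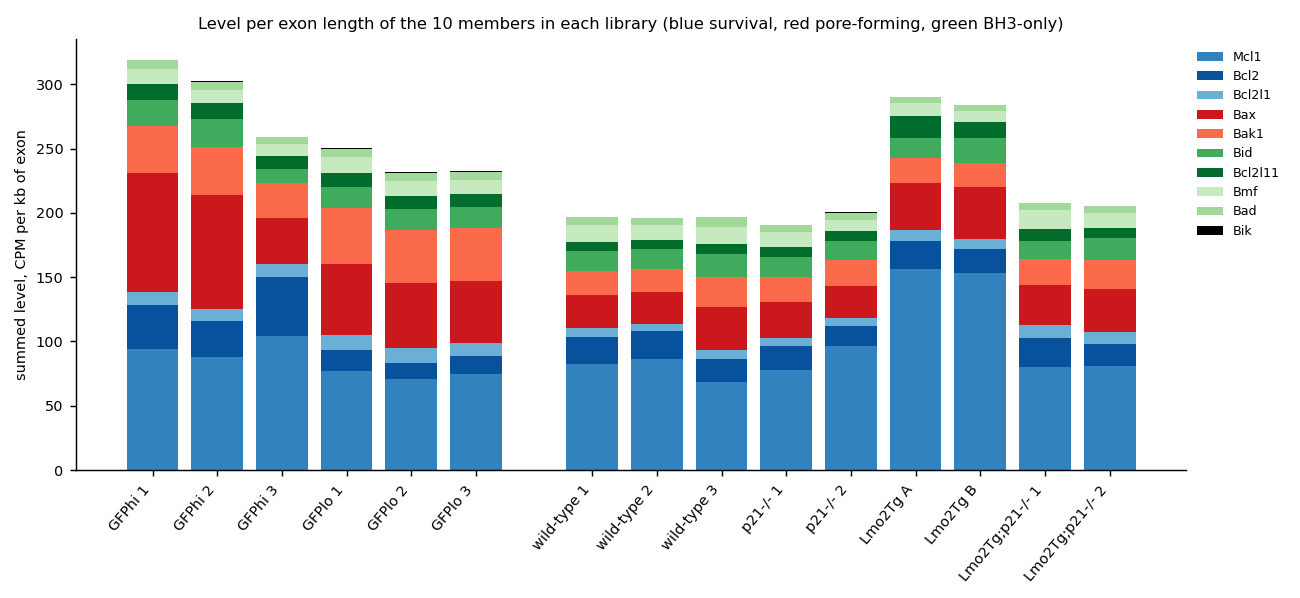
Stacked bars give the level of each member in CPM per kb of exon for each of the 15 libraries, on a linear axis from 0, with survival genes in blue, pore formers in red and BH3-only genes in green. The sum was 284 and 290.3 CPM per kb in the Lmo2Tg libraries and 191 to 208 in the other genotype libraries, and the lowest blue block, Mcl1, accounts for most of that gap.

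The first comparison asked how the family differs between label-retaining and dividing pre-leukemic DN3 cells. Bcl2 and Mcl1, both survival genes, were higher in GFPhi. They were called together with Bik, which had few reads and passed the filter on low counts only through GFPlo, where it is high, so its call is no support for a change in the family. The 3 calls came from a fit in which 14.9% of 11581 genes were called (edgeR's quasi-likelihood test, Benjamini-Hochberg adjusted p under 0.05). By direction, 5.37% of genes were called higher and 9.49% lower. The median log2 fold change was 0.05 over the 10 members and 0.02 over all genes tested.

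Bcl2 was at 317, 259 and 418 CPM in the GFPhi libraries and at 149, 116 and 123 CPM in the GFPlo libraries. The lowest GFPhi library was above the highest GFPlo library, and the spread among GFPhi libraries was wider than among GFPlo libraries. The means were 331 ± 80.4 CPM (SD, n = 3) and 129 ± 17.2 CPM (SD, n = 3), a log2 fold change of 1.36 with an SE of 0.19 (adjusted p = 0.0104, edgeR). The 95% interval ran from 0.89 to 1.83 on the log2 scale. Without the third GFPhi library, the highest, it was 1.16 with an adjusted p of 0.00073 in edgeR, and without the second or the third GFPlo library the adjusted p was 0.068 and 0.062. In bulk RNA, fewer cells of a type that express a gene and less of its RNA per cell cannot be told apart, here and in all comparisons that follow.

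Mcl1, a short-lived survival protein that thymocytes need at most stages, was at 322, 300.2 and 357 CPM in GFPhi and at 263, 242 and 257 CPM in GFPlo libraries. Here too the groups did not overlap, with a smaller gap than for Bcl2. The log2 fold change was 0.36 with an SE of 0.08 (adjusted p = 0.0353, edgeR). The call was lost in 4 of the 6 fits that each left out 1 library, where the log2 fold change stayed between 0.30 and 0.42 over all 6. Those 4 were the fits without the first GFPhi library and without each of the GFPlo libraries in turn.

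Bcl2l1, which encodes the survival protein BCL-XL, was at 46.5, 43.4 and 45.1 CPM in GFPhi and at 55.1, 52.4 and 47.2 CPM in GFPlo libraries. All GFPhi libraries lay below all GFPlo libraries, by 0.20 on the log2 scale with an adjusted p of 0.14 in edgeR, which is not a call. Libraries of the 2 groups did not overlap, with GFPhi lower, for 21.7% of all genes tested, and with GFPhi higher for 19.6%.

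Of the pore formers, Bax was at 145.5, 139 and 56.6 CPM in the GFPhi libraries and at 86.1, 79.3 and 75.8 CPM in the GFPlo libraries. The first and second GFPhi libraries lay above all GFPlo libraries and the third lay below them. The log2 fold change of 0.50, with a 95% interval from -0.33 to 1.33, was not called (adjusted p = 0.35, edgeR). Bak1, whose product sits in the mitochondrial membrane, was at 86.9, 90.4 and 65.5 CPM in GFPhi and at 106, 100.1 and 99.8 CPM in GFPlo libraries. Its libraries did not overlap, with a log2 fold change of -0.33 and an adjusted p of 0.13 in edgeR. Genes of chromosome 17, on which Bak1 lies, had a median log2 fold change of -0.15, and the part of that shift in the Bak1 value was not tested.

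Among BH3-only genes, Bid, which caspase 8 cleaves to link death receptors to mitochondria, followed the pattern of Bax. It was at 72.0, 77.2 and 39.2 CPM in GFPhi and between 57.1 and 57.6 CPM in GFPlo libraries. Bcl2l11, encoding BIM, was at 104, 100.3 and 79.3 CPM in GFPhi and at 88.7, 83.4 and 80.6 CPM in GFPlo libraries, so the third GFPhi library fell below the GFPlo values and the others above them. Neither was called in the fit of all 6 libraries, with adjusted p of 0.74 for Bid and 0.34 for Bcl2l11 (edgeR).

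Without the third GFPhi library 7 of the 10 members were called, in a fit that called 41.3% of 11745 genes, both directions together. Bik was among the 7, and its call is again no support for a change, since it passed the filter only through GFPlo. Bax was then 0.83 higher on the log2 scale in GFPhi (adjusted p = 0.00024, edgeR). Bid was 0.38 higher and Bcl2l11 0.29 higher, with adjusted p of 0.0025 and 0.0095 in edgeR, and Bak1 had a log2 fold change of -0.19 with an adjusted p of 0.027 in edgeR. Without the second or the third GFPlo library, in fits that called 2.33% and 3.8% of genes, 0 members were called. A replicate block kept 1, Bcl2, with 4.28% of genes called.

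Some genes outside the 10 members also differed among the GFPhi libraries; those named here were chosen after their values were seen. Pmaip1, the BH3-only gene for NOXA, was at 46.4, 44.7 and 2.64 CPM in GFPhi and at 2.13 to 3.39 CPM in GFPlo libraries. Bbc3, the BH3-only gene for PUMA, was at 28.5, 27.8 and 4.92 CPM in GFPhi and at 14.7 to 16.5 CPM in GFPlo libraries. Cdkn1a was at 35.8, 29.9 and 6.55 CPM in GFPhi and at 8.08 to 12.02 CPM in GFPlo libraries. None of these 3 was called over the 6 libraries, and Mdm2, at 138, 136.5 and 121 CPM in GFPhi and 114 to 115 CPM in GFPlo libraries, had all GFPhi libraries above GFPlo. The third GFPhi library also had a summed level of 123 CPM over 6 markers of later thymocytes, against 424 and 461 CPM in the other GFPhi libraries, and the part of this in the member values was not tested. Of 8 B lineage markers, 7 were tested and 4 (Cd79a, Ms4a1, Pax5 and Cd22) were called higher in GFPhi, against 5.37% of all genes. The median log2 fold change of those tested was 3.42. Markers of this list may have passed the filter on low counts only through GFPhi, so the count of calls is no support for a change. The 8 summed to 29.0 to 56.7 CPM in GFPhi against 24.6 to 28.2 CPM in GFPlo. Thymic stroma markers summed to 39.4 to 79.9 against 16.9 to 23.9 CPM with Pdgfra at 0. Early progenitor markers summed to 447 to 606 CPM in GFPhi and 759 to 806 CPM in GFPlo. Their part in the member values was not tested either.

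Bik, a BH3-only gene of the endoplasmic reticulum, had 8, 7 and 6 reads in the GFPhi libraries and 20, 25 and 26 reads in the GFPlo libraries. It passed the filter on low counts only through GFPlo, where it is higher, so its call was in part set by that filter. The log2 fold change was -1.68 with an SE of 0.29 (adjusted p = 0.0172, edgeR), and the call was lost in 5 of 6 fits that left out 1 library. Bik lies on chromosome 15, of whose 464 tested genes 90.3% were fitted lower in GFPhi, with a median log2 fold change of -0.43. The Bik value was larger than that median, and the part of the chromosome-wide shift in it was not tested.

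Bad and Bmf gave no call. Bad was at 15.04 to 17.5 CPM in GFPhi and 16.0 to 16.6 CPM in GFPlo libraries, a log2 fold change of -0.02 with a 95% interval from -0.26 to 0.22. Bmf was at 48.7 to 60.1 CPM in GFPhi and 58.6 to 65.9 CPM in GFPlo libraries, with a log2 fold change of -0.18. Chromosome 2, which holds Bmf, Bcl2l1 and Bcl2l11, had a median log2 fold change of -0.18 with 77.6% of its 923 tested genes fitted lower, and its part in these values was not tested.

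**Figure D2:**
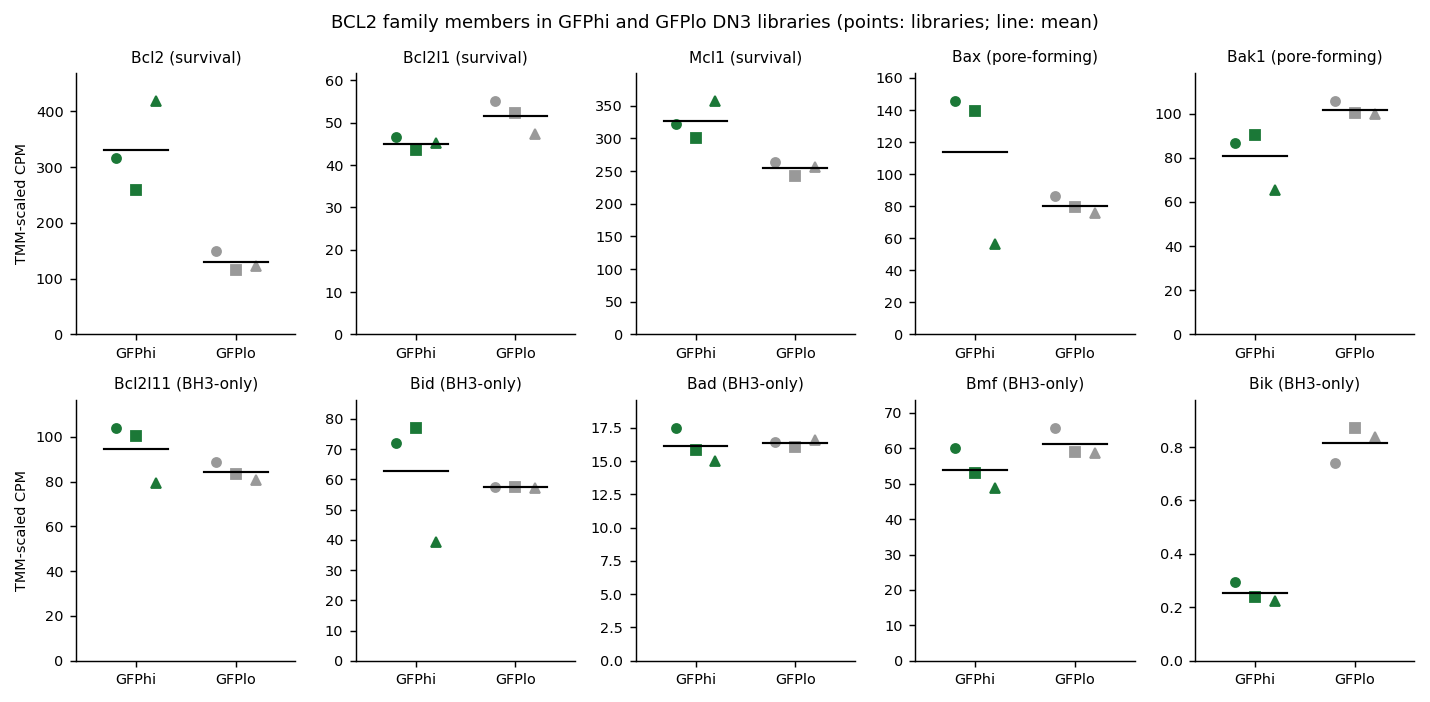
Each panel shows 1 member, with TMM-scaled CPM from 0 on the y axis; circles, squares and triangles are the libraries numbered 1, 2 and 3 in a group, and lines are means of 3. Bcl2 and Mcl1 sit higher and Bik lower in every GFPhi library, while the third GFPhi library drops below the GFPlo libraries for Bax (56.6 CPM), Bid (39.2 CPM) and Bcl2l11 (79.3 CPM).

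The second comparison asked what the transgene changes in total DN3 cells. Against wild-type, the Lmo2Tg libraries had higher Mcl1, Bcl2l1, Bax and Bcl2l11 and lower Bmf. These were 5 of the 9 members tested, in a fit that called 36.6% of 11840 genes (edgeR, adjusted p under 0.05), 19.7% higher and 16.9% lower. Bik did not pass the filter on low counts in the genotype libraries. The median log2 fold change over the 9 members was 0.07, and over all genes tested -0.01.

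Mcl1 was at 534 and 524 CPM in the Lmo2Tg libraries and at 283, 294 and 235 CPM in the wild-type libraries. The gap between the groups was larger than the spread within either. The log2 fold change was 0.97 with an SE of 0.11 (adjusted p = 8.455e-05, edgeR) and stayed between 0.88 and 1.03 when any 1 of the 9 libraries was left out. Bcl2l11, whose product BIM is a main partner of MCL1, was at 140.2 and 99.9 CPM in Lmo2Tg and at 58.5, 56.5 and 66.2 CPM in wild-type libraries. The Lmo2Tg libraries differed from each other by more than the wild-type libraries did, yet both lay above them. Its log2 fold change was 0.99 with an SE of 0.13 (adjusted p = 0.000192, edgeR), and it stayed called in every fit that left out 1 library, between 0.73 and 1.21.

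The other called members had smaller differences. Bcl2l1 was at 39.8 and 35.9 CPM in Lmo2Tg and at 29.1, 27.2 and 30.2 CPM in wild-type libraries, a log2 fold change of 0.39 (SE 0.09, adjusted p = 0.0065, edgeR). Bax was at 57.2 and 64.3 CPM against 40.6, 39.1 and 52.9 CPM, a log2 fold change of 0.46 (SE 0.13, adjusted p = 0.0159, edgeR). Bmf, in the other direction, was at 52.4 and 44.6 CPM against 68.9, 59.3 and 69.6 CPM, a log2 fold change of -0.44 (SE 0.15, adjusted p = 0.0367, edgeR). None of these 3 pairs of groups overlapped, as for 29.9% of all genes with Lmo2Tg higher and 31% with it lower. Leaving out 1 library ended the call of Bcl2l1 in 1 fit, without Lmo2Tg library A (adjusted p = 0.064, edgeR). It ended that of Bax in 3 fits, without Lmo2Tg library B or the first or second wild-type library, and that of Bmf in 4, without either Lmo2Tg library or the first or the third wild-type library.

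Bcl2 was not among the called members. It was at 199.7 and 169.7 CPM in Lmo2Tg libraries and at 193, 200.5 and 165 CPM in wild-type libraries, a log2 fold change of -0.01 with a 95% interval from -0.31 to 0.29. Bak1 and Bid likewise overlapped between the groups, at log2 fold changes of -0.06 and 0.07. Bad was lower in both Lmo2Tg libraries, at 12.4 and 12.9 CPM against 14.7, 14.8 and 19.4 CPM, with a log2 fold change of -0.37 and an adjusted p of 0.071 in edgeR.

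Marker levels moved with the transgene as well. The summed level of the 10 DN3 markers was 5423 to 6144 CPM in Lmo2Tg against 7967 to 8321 CPM in wild-type libraries, that of 6 early progenitor markers 331 to 485 against 239 to 268 CPM, and that of 6 later thymocyte markers 186 to 219 against 63.9 to 72.0 CPM. Their part in the member values was not tested.

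**Figure D3:**
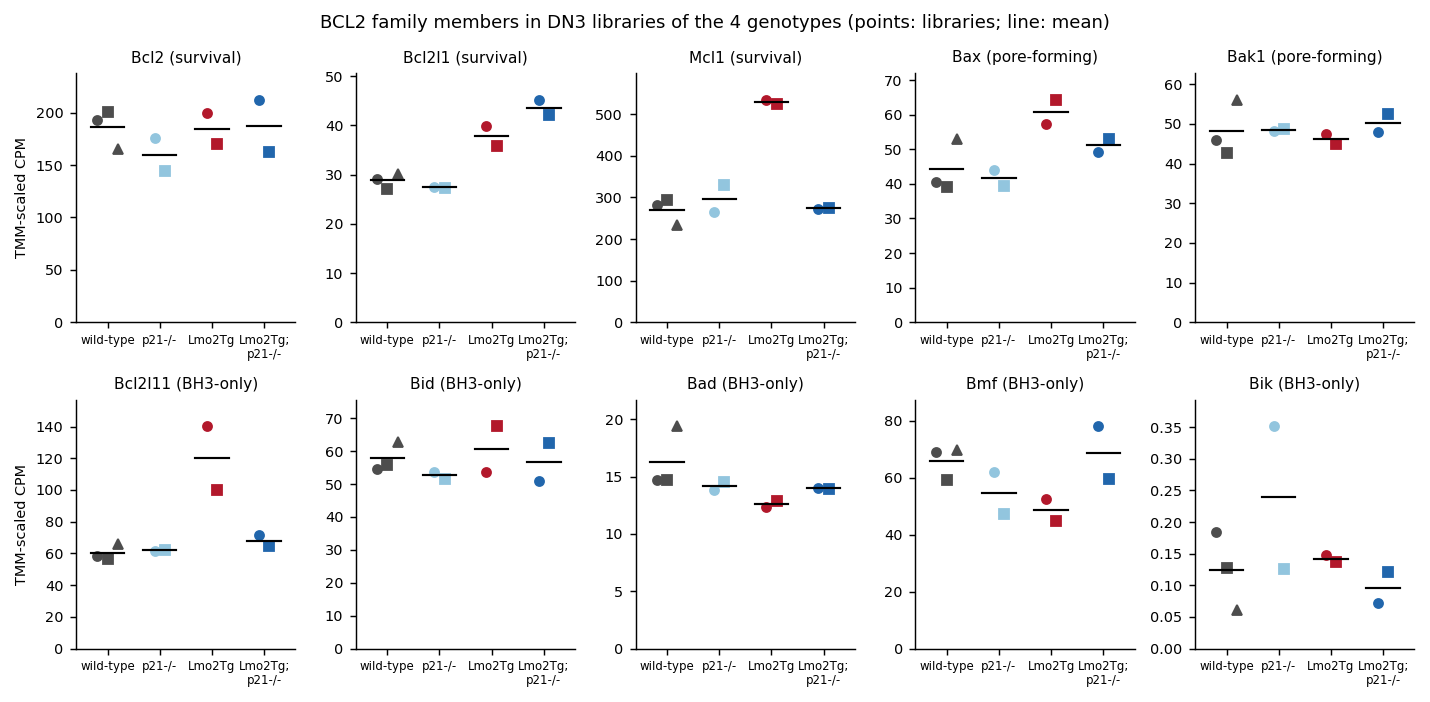
Each panel shows 1 member in the 4 genotypes, with TMM-scaled CPM from 0 on the y axis, symbols for libraries and lines for means. The Lmo2Tg libraries stand alone for Mcl1 (524 and 534 CPM) and Bcl2l11 (99.9 and 140.2 CPM), while Bcl2l1 is above wild-type in both transgenic genotypes.

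Loss of p21 alone was the third comparison. No member was called between p21-/- and wild-type libraries, where the fit called 13 genes, 0.11% of those tested (0.0507% higher and 0.0591% lower), and 3.3% had an unadjusted p under 0.05. Bad and Bid were lower in both p21-/- libraries than in every wild-type library, a separation that 9.63% of all genes showed in that direction and 9.9% in the other. DESeq2, limma-voom and each other setting tried also called 0 members, and 0 members had an unadjusted p under 0.05. Mcl1 was at 265 and 329.5 CPM in p21-/- libraries, Bcl2l11 at 61.7 and 62.1 CPM, and Bcl2l1 at 27.5 and 27.3 CPM. The 95% intervals of the log2 fold changes ran from -0.11 to 0.38 for Mcl1, from -0.25 to 0.32 for Bcl2l11 and from -0.27 to 0.13 for Bcl2l1. Bcl2, at 175 and 144 CPM, Bax, Bak1 and Bmf overlapped between the groups, with log2 fold changes of -0.22, -0.08, 0.0056 and -0.27. With 2 and 3 libraries, differences inside these intervals remain compatible with the data.

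The fourth comparison took p21 away in the presence of the transgene. Mcl1 and Bcl2l11 were lower in Lmo2Tg;p21-/- than in Lmo2Tg libraries, 2 of 9 members in a fit that called 6.94% of genes, 3.35% higher and 3.59% lower. Mcl1 was at 273 and 276 CPM, inside the wild-type range, and Bcl2l11 at 71.3 and 64.6 CPM, with 1 library inside and 1 above the wild-type range. The log2 fold change of Mcl1 was -0.95 with an SE of 0.12 (adjusted p = 0.0033, edgeR), and that of Bcl2l11 was -0.82 with an SE of 0.14 (adjusted p = 0.0099, edgeR). The Mcl1 call held in every fit that left out 1 library, and the Bcl2l11 call was lost without either Lmo2Tg;p21-/- library (adjusted p = 0.061 and 0.054, edgeR). The comparison shares the Lmo2Tg libraries with the comparison against wild-type, so a chance high value in those 2 libraries would enter both with opposite sign.

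Bmf went the other way. It was at 78.1 and 59.5 CPM in Lmo2Tg;p21-/- against 52.4 and 44.6 CPM in Lmo2Tg libraries, a log2 fold change of 0.50 with an adjusted p of 0.085 in edgeR. DESeq2 and the fit with no filter on low counts called it, with adjusted p of 0.037 and 0.025 in backgrounds of 8.88% and 7.39%. Bcl2l1 and Bax moved little: Bcl2l1 was at 45.2 and 42.0 CPM and Bax at 49.3 and 53.0 CPM in Lmo2Tg;p21-/- libraries, with log2 fold changes against Lmo2Tg of 0.20 and -0.25 and no call. Bcl2l1, Bmf, Bad and Bak1 were higher and Bax lower in both Lmo2Tg;p21-/- libraries than in either Lmo2Tg library, besides Mcl1 and Bcl2l11, where 29% of all genes separated upward and 25.7% downward. Bcl2, at 212 and 162 CPM, covered the whole Lmo2Tg range.

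The next comparison gave the effect of the transgene in mice without p21. Bcl2l1 was higher in Lmo2Tg;p21-/- than in p21-/- libraries, at 45.2 and 42.0 CPM against 27.5 and 27.3 CPM. This was the 1 member called of 9, in a fit that called 30.7% of genes, 16.3% higher and 14.4% lower. Bax and Bcl2l11 were also higher in both libraries than in either p21-/- library, as were 35.5% of all genes, while 35.4% separated downward. A replicate block fitted without the Lmo2Tg libraries called Bax and Bmf as well, with 42.3% of genes called. The log2 fold change was 0.67 with an SE of 0.10 (adjusted p = 0.000548, edgeR) and stayed between 0.60 and 0.71 in all fits that left out 1 library. Mcl1 had a log2 fold change of -0.12 with a 95% interval from -0.39 to 0.16, and Bcl2l11 of 0.14 with an interval from -0.18 to 0.45. The upper bounds of both lie under the differences of 0.97 and 0.99 seen between Lmo2Tg and wild-type libraries. Those differences have errors of their own, and the interaction term below is the test of this gap.

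The interaction term tested whether the effect of p21 loss differs with and without the transgene. Mcl1 was the member called of 9, with 1.38% of genes called, 0.279% higher and 1.1% lower. Its term was -1.08 on the log2 scale, with an SE of 0.17 and a 95% interval from -1.45 to -0.72 (adjusted p = 0.0244, edgeR). Leaving out 1 library kept the term between -1.23 and -0.92 but ended the call in 5 of the 9 fits, with adjusted p of up to 0.119 (edgeR). Those were the fits without the first or the third wild-type library, the second p21-/- library, or either Lmo2Tg;p21-/- library. For Bcl2l11 the term was -0.86 (adjusted p = 0.060, edgeR) and for Bmf 0.77 (adjusted p = 0.106, edgeR). DESeq2 and the fit with no filter called all 3 of these genes, in backgrounds of 3.86% and 3.24%, and a filter of 1 CPM in every library left Mcl1 and Bcl2l11 called in a background of 1.79%. For Bcl2l1 the term was 0.28 with an interval from -0.02 to 0.57, so a difference between the transgene's effect on it with and without p21 was not shown. At an adjusted p under 0.01 with over 2-fold change, 0 members passed in any comparison, where 2.25% of genes passed between GFPhi and GFPlo, 9.74% between Lmo2Tg and wild-type, 0.0845% between p21-/- and wild-type, 0.819% between Lmo2Tg;p21-/- and Lmo2Tg, 8.3% between Lmo2Tg;p21-/- and p21-/-, and 0% for the interaction.

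**Figure D4:**
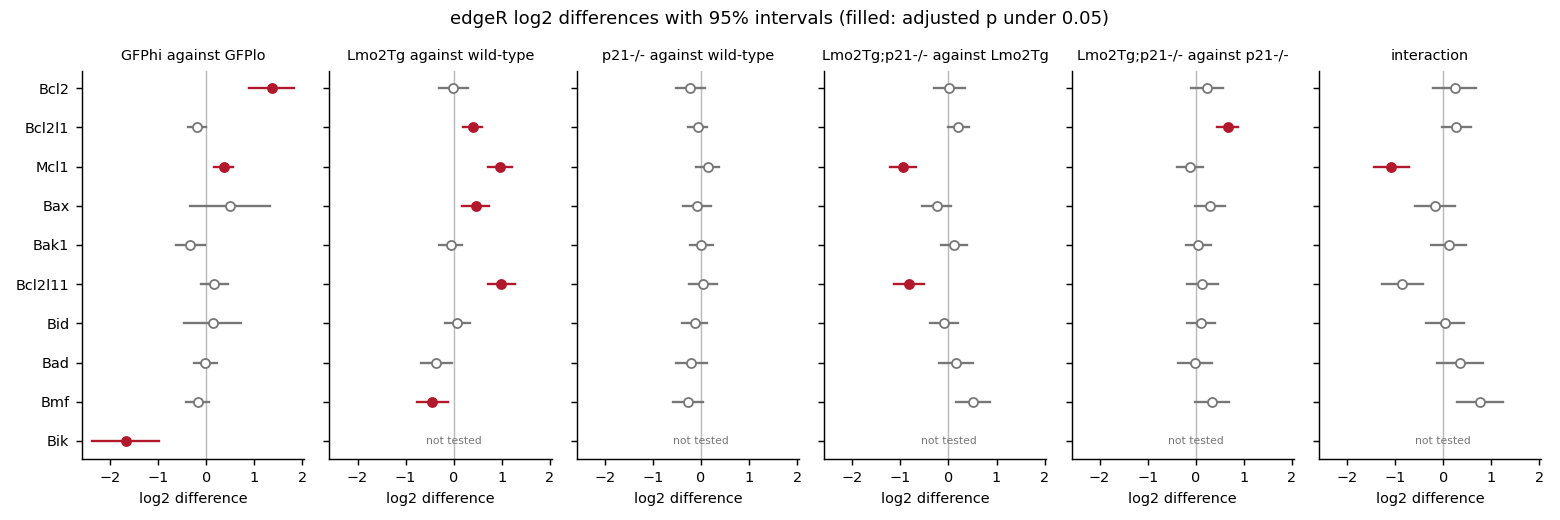
Points are log2 differences from edgeR and bars their 95% intervals for each member in the 6 comparisons, with the first-named group higher to the right, and filled red points mark adjusted p under 0.05. Mcl1 and Bcl2l11 lie near 1 against wild-type and near -1 when p21 is lost from Lmo2Tg, Bcl2 is called between GFPhi and GFPlo (1.36) and in no genotype comparison, and Bik was not tested in the genotypes.

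By library, Mcl1 set the Lmo2Tg libraries apart from the other 13. It was at 524 CPM or more in both and at 357 CPM or less elsewhere. Bcl2l11 did not: GFPhi libraries 1 and 2, at 104 and 100.3 CPM, lay above the 99.9 CPM of Lmo2Tg library B. These levels cross 2 separately scaled tables.

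**Figure D5:**
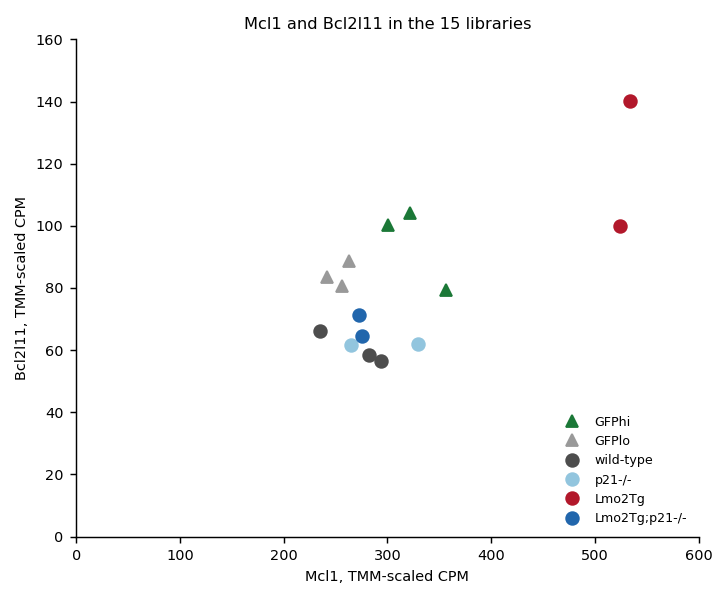
Each point is 1 of the 15 libraries, with Mcl1 in TMM-scaled CPM on the x axis and Bcl2l11 on the y axis, both linear from 0; triangles are GFPhi and GFPlo libraries and circles are the genotypes. The Lmo2Tg circles lie at the right (524 and 534 CPM of Mcl1), and the Lmo2Tg;p21-/- circles (273 and 276 CPM) lie among wild-type and p21-/- libraries on the x axis. On the y axis the first Lmo2Tg;p21-/- library, at 71.3 CPM of Bcl2l11, lies above all wild-type and p21-/- libraries.

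Ratios per exon length within a library describe the balance of the members without any scaling between libraries. The ratio of Mcl1 to Bcl2l11 was 10.6 ± 2.05 (SD, n = 3) in wild-type and 10.6 ± 2.39 (SD, n = 2) in Lmo2Tg libraries, and the ranges overlapped. The ratio of Bcl2 to Bcl2l11 was 2.19 to 3.11 in wild-type, 1.25 to 1.49 in Lmo2Tg and 2.20 to 2.61 in Lmo2Tg;p21-/- libraries, and the Lmo2Tg range stood apart from both. In GFPhi libraries that ratio was 2.27 to 4.62, above the 1.22 to 1.47 of GFPlo libraries. The ratio of Bmf to Bcl2l11 was 1.60 to 1.80 in wild-type, 0.57 to 0.68 in Lmo2Tg and 1.41 to 1.67 in Lmo2Tg;p21-/- libraries.

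Survival genes made up 63.2% and 64.3% of the summed level per length in Lmo2Tg libraries, against 47.4% to 58.0% in wild-type and 52.3% and 54.3% in Lmo2Tg;p21-/- libraries. Mcl1 alone made up 53.8% and 53.9% in Lmo2Tg libraries. In the GFP experiment the share of survival genes was 43.5%, 41.6% and 61.7% in GFPhi and 41.02% to 42.5% in GFPlo libraries, so only the third GFPhi library was clearly apart. The share of Bcl2 alone was 9.38% to 17.6% in GFPhi and 5.49% to 6.49% in GFPlo libraries.

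Other family genes and the steps around the members were described from lists. Of 12 further BCL2 family genes, 5 were tested in the genotypes, and 4 of these were called between Lmo2Tg and wild-type, where 36.6% of all genes were called. Pmaip1 was at 15.4 and 31.9 CPM against 2.57 to 4.52 CPM (log2 fold change 2.84), and Bbc3 at 14.0 and 10.7 CPM against 3.55 to 4.90 CPM (log2 fold change 1.52). Bcl2l2, which encodes the survival protein BCL-W, fell from 19.0 to 20.2 CPM in wild-type to 8.34 and 8.87 CPM (log2 fold change -1.17), and Bcl2l14 fell by 0.67 on the log2 scale. Against p21-/- libraries, Lmo2Tg;p21-/- libraries had Bbc3 and Pmaip1 called higher (log2 fold changes 1.04 and 1.21) and Bcl2l2 lower (-0.40), where 30.7% of all genes were called. Between Lmo2Tg;p21-/- and Lmo2Tg libraries, where 6.94% were called, Bcl2l2 was the 1 called of 5, at 14.6 and 12.7 CPM, and Pmaip1 was at 9.92 and 10.9 CPM with an adjusted p of 0.053 (edgeR). In the GFP experiment 0 of 6 tested were called, among them Pmaip1 with an unadjusted p of 0.013 (edgeR).

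Of 14 regulators of the members, 6 were called higher and 1 lower in Lmo2Tg than in wild-type libraries, against 19.7% and 16.9% of all genes, with a list median of 0.20 on the log2 scale. Foxo3, Mdm2, Jak3 and Ddit3 were among those higher, with log2 fold changes of 0.61, 0.52, 0.50 and 0.63. Stat5a and Stat5b, which carry the interleukin-7 signal to Bcl2 family genes, had log2 fold changes of 0.74 and 0.64, and Il7r, the receptor, was the gene called lower, at 0.72 below wild-type (log2 fold change -0.72). Against p21-/- libraries, Lmo2Tg;p21-/- libraries had 4 regulators called higher (Stat5a, Stat5b, Jak3 and Foxo3) and 1 lower, E2f1, against 16.3% and 14.4% of all genes. Between Lmo2Tg;p21-/- and Lmo2Tg libraries 1 of 14 was called, where 6.94% of all genes were called. It was Ddit3, a stress-induced factor that can raise Bcl2l11, with a log2 fold change of -0.63. In GFPhi, Jak1 was called higher (log2 fold change 0.36) and Stat5a lower (-0.52), against 5.37% and 9.49% of all genes.

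Of 4 inhibitor of apoptosis genes, 3 were called higher in Lmo2Tg than in wild-type (Birc2, Birc3 and Birc6) and 0 lower, against 19.7% and 16.9% of all genes, with a list median of 0.49 on the log2 scale. Of 6 death receptor genes, Fas, Fasl and Cflar were called higher and Tnfrsf10b, Tnfrsf1a and Fadd lower in the same comparison, in which 36.6% of all genes were called. Between Lmo2Tg;p21-/- and p21-/- libraries, where 30.7% were called, Birc3 was called higher (log2 fold change 0.70), Fas, Fasl and Cflar higher and Tnfrsf10b and Tnfrsf1a lower. Fasl had 5 to 7 reads per wild-type library and 5 to 9 per p21-/- library. It passed the filter on low counts only through the transgenic genotypes, where it is high, so its calls in both comparisons are no support for a change. In GFPhi against GFPlo, Fasl was the 1 death receptor gene called. It had 3 to 11 reads per GFPlo library and passed the filter through GFPhi, where 1 library held 20.4 CPM and the others 2.72 and 1.77 CPM, so its call is no support for a change. Neither the inhibitor of apoptosis list nor the death receptor list had a called gene between Lmo2Tg;p21-/- and Lmo2Tg or between p21-/- and wild-type libraries.

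The genes most like a member were taken by Pearson correlation of log2 CPM over the 15 libraries, with the mean of each experiment removed, among 11249 genes tested in both experiments. For Mcl1 they were Tspyl1 (r = 0.988), Mchr1 (0.979) and Dnajb9 (0.972), and for Bcl2l11 Map2k3 (0.961), 1700017B05Rik (0.958) and Ubl3 (0.951). For Bcl2l1 they were Stat5a, S1pr4 (0.969) and Mkl1 (0.967), and for Bcl2 the first was Zfp956 (0.964). Bax was most like Mfsd2a (0.966), Bak1 like 1700037H04Rik (0.936), Bid like Psmd13 (0.938), Bad like Trp53 (0.898) and Bmf like Mavs (0.911). These values are descriptions over libraries that share groups and scaling.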

How the data were processed

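Poly-A captured RNA of sorted DN3 thymocytes was sequenced in 6 GFPhi and GFPlo and 10 genotype samples. The authors deposited raw counts per protein-coding gene, 1 table per experiment, made per the submitters' processing notes with STAR 2.4.2a, featureCounts and mm10. Of the genotype columns 9 were matched to labels, and 1 column matched no sample and was not used. The name of that column begins like those of the Lmo2Tg;p21-/- columns, but the labels give 2 samples of that genotype. For 1 p21-/- sample no column was used here. The Lmo2Tg columns could be matched to the group only and are named A and B.

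Genes were filtered by filterByExpr (minimum count 10, minimum total 15), scaled by TMM and tested with edgeR 4.0.16 in R 4.3.3 by the quasi-likelihood test, with Benjamini-Hochberg adjustment over all genes tested. GFPhi and GFPlo were fitted alone and the 9 genotype libraries together. Genes were called at an adjusted p under 0.05. Pools were taken as replicates; p-values measure the spread between pools. Levels per length used the merged exons of GENCODE M21, to which 98.2% of genes matched. Figures were drawn with matplotlib 3.10.9. Members are described in each comparison; list genes outside the family were to be named where called, up to 6 by smallest p, and not all of them are printed. The tests were tested on simulated data. Other settings tried were DESeq2 1.42.0, limma-voom (limma 3.58.1), scaling by RLE, testing without a filter or requiring 1 CPM per library, a stricter call (adjusted p under 0.01 and more than 2-fold), blocking on the replicate number, fitting the compared groups alone, and leaving out single libraries. Members and lists were chosen with earlier results of these data known. Results on some genes of the wider apoptosis pathway are not reported here.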

Additional observations from a re-analysis of the deposited data

Results flagged for a closer look

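For Mcl1 a difference in the effect of p21 loss with and without the transgene was called. The log2 difference between the effects was -1.08 (adjusted p = 0.0244, edgeR's quasi-likelihood test). Leaving out 1 library kept it between -1.23 and -0.92 but did not always keep the call. Mcl1 was lower in 2 of 2 Lmo2Tg;p21-/- libraries than in either Lmo2Tg library, as for 25.7% of all genes. It overlapped between p21-/- and wild-type libraries.

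For Bad the groups separated in opposite directions with and without the transgene. Both p21-/- libraries (13.8 and 14.6 CPM) were below all wild-type libraries (14.7 to 19.4 CPM), as for 9.63% of all genes. Both Lmo2Tg;p21-/- libraries (14.1 and 13.9 CPM) were above both Lmo2Tg libraries (12.4 and 12.9 CPM), as for 29% of all genes. The difference of the effects was 0.35 on the log2 scale, and the interaction test gave an unadjusted p of 0.134 and an adjusted p of 0.42 (edgeR), which is not a call.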

How the results depend on the processing

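Of the values for called members, 69 of 71 kept their direction and call under other settings. That count leaves out the stricter call, under which no member stayed called, and the fits that left out a library. When a library was left out, 73 of 99 kept both, and 0 of either count reversed. The stricter call left 261 genes between GFPhi and GFPlo, 1153 between Lmo2Tg and wild-type, 97 between Lmo2Tg;p21-/- and Lmo2Tg, 983 between Lmo2Tg;p21-/- and p21-/- and 0 for the interaction, with 0 members in each. DESeq2 called 2912 genes between GFPhi and GFPlo, 20 between p21-/- and wild-type and 457 for the interaction, with 3 members in the last. Without a filter 21 genes were called between p21-/- and wild-type and 520 for the interaction, again with 3 members, and at 1 CPM or more in every library 2 members were called for the interaction. Fitting only the compared groups gave 404 genes between Lmo2Tg;p21-/- and Lmo2Tg. The causes were not tested.

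Deviations of same-numbered GFPhi and GFPlo libraries from their group means had correlations of 0.070, -0.079 and 0.099. With so few libraries these values cannot show whether same-numbered libraries came from the same cohort of mice. With the replicate block 496 genes (4.28%) and 1 member, Bcl2, were called between GFPhi and GFPlo. With a block and without the Lmo2Tg libraries, a fit added after seeing the data, 3 members were called between Lmo2Tg;p21-/- and p21-/-, where 42.3% of genes were called.

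Leaving out 1 library gave 273 to 4848 genes and 0 to 7 members between GFPhi and GFPlo, 2815 to 4248 genes and 3 to 5 members between Lmo2Tg and wild-type, and 8 to 18 genes and 0 members between p21-/- and wild-type. It gave 60 to 1128 genes and 1 to 2 members between Lmo2Tg;p21-/- and Lmo2Tg, 1914 to 4251 genes and 1 to 2 members between Lmo2Tg;p21-/- and p21-/-, and 0 to 449 genes and 0 to 2 members for the interaction. Some log2 values of uncalled members changed sign. Between GFPhi and GFPlo these were Bid from -0.046 to 0.38 and Bad from -0.077 to 0.032. Between Lmo2Tg and wild-type these were Bcl2 from -0.13 to 0.098, Bak1 from -0.14 to 0.0604 and Bid from -0.11 to 0.23. Between p21-/- and wild-type these were Bak1 from -0.077 to 0.12, Bcl2l11 from -0.013 to 0.10, Bax from -0.17 to 0.062 and Mcl1 from -0.032 to 0.28. For the interaction these were Bak1 from -0.0061 to 0.20 and Bid from -0.13 to 0.21. Between Lmo2Tg;p21-/- and p21-/- these were Mcl1 from -0.26 to 0.049, Bad from -0.055 to 0.015, Bak1 from -0.022 to 0.11 and Bid from -0.054 to 0.23. Between Lmo2Tg;p21-/- and Lmo2Tg these were Bcl2 from -0.20 to 0.19 and Bid from -0.26 to 0.079. Bak1 between p21-/- and wild-type was -0.001203 without a filter, Bcl2 between Lmo2Tg and wild-type 0.0033 at 1 CPM or more, and Bax between p21-/- and wild-type 0.062 with a replicate block in the compared groups. Bik, at 6 reads or fewer per genotype library, and groups of 2 libraries limit what could be detected.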
